A study of Mus musculus with 16 samples.

Results

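The genes described here were 32 genes of ribosome biogenesis and the nucleolus, measured by RNA-seq in B cells of mouse spleen sorted as follicular (FO) or marginal zone (MZ). They were chosen as a named list of symbols, with earlier results of these data known. All 32 were found among the 27928 genes of the count table. The study asked what the transcription factor TFII-I, encoded by Gtf2i, does in mature B cells. It compared C57BL/6 mice labelled WT with conditional knock-out (cKO) mice, which carry Gtf2i fl/fl alleles and a Cre that is active in B cells. The 4 groups (WT FO, WT MZ, cKO FO and cKO MZ) had 2 libraries each, none of which came from treated cells. The methods of the study describe the WT mice as BL6 and name no Cre in them, so the loss of Gtf2i and the presence of Cre cannot be told apart. FO B cells were sorted as CD21-low and CD23-high and MZ B cells as CD21-high and CD23-low, from mice aged 8 to 12 weeks.

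Ribosomes are built in the nucleolus, where RNA polymerase I transcribes a long precursor that is cut, chemically modified and folded into the RNAs of the small and the large subunit. Box C/D and box H/ACA particles carry guide RNAs that place 2′-O-methyl groups and pseudouridines, and large sets of assembly factors then fit ribosomal proteins onto each subunit. In B cells this machinery is known to grow strongly when resting cells are activated, and MZ B cells are known to respond faster to stimulation than FO B cells.

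Between 21546552 and 25083552 reads per library fell on genes, and the deposited values are those reads divided by 1 size factor per library ("normalised counts"). Labels and markers went together for the subsets. Cr2, which encodes CD21, lay between 86953 and 97087 normalised counts in MZ and between 22942 and 26803 in FO libraries, and Fcer2a, which encodes CD23, between 3069 and 6708 in MZ and between 24802 and 41973 in FO libraries. The targeted gene Gtf2i was at 2864 and 2471 normalised counts in WT MZ and 1782 and 1889 in cKO MZ libraries, against 2040 and 1992 for WT FO and 1523 and 1531 for cKO FO. It was lower in every cKO library than in every WT library of the same subset. The log2 difference (cKO minus WT) was -0.47 ± 0.067 (SE) across both subsets. This difference did not pass the test over all genes (adjusted p = 0.0793, limma). Separately, the paper reports that the deletion in B cells was checked in DNA, mRNA and protein. Genotype and sex-linked transcripts differed together. Xist was at 25930 to 47002 in the 4 WT libraries, no higher than 89.7 in 3 of the 4 cKO libraries and 14748 in cKO FO replicate 1, while Ddx3y was at 2682 to 5514 in cKO and no higher than 6.34 in WT libraries, so cKO FO replicate 1 held both. One library stood apart in markers of other cells: in cKO MZ replicate 1 the 10 granulocyte markers summed to 1879 and the 7 erythroid markers to 13364 normalised counts, against 23.8 to 105 and 33.9 to 1025 in the other 7 libraries. The labels do not say whether the replicates came from different mice, so p-values measure the spread between these libraries, which may be technical.

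The first question was whether the ribosome biogenesis genes differ between the subsets. Most of them were modestly higher in the MZ subset, and none passed the test in the other direction. Across both genotypes 29 of the 32 genes had a log2 difference (FO minus MZ) below 0, with a median of -0.25 against 0.005 for the 14761 genes tested, and 17 of the 32 passed an adjusted p of 0.05 at any fold, all of them higher in MZ. Of all genes tested, 17.1% passed in that direction and 16.3% in the direction of FO. With a fold of at least 1.5 also required ("called"), only Npm1 was left of the 32, where 10.9% of all genes were called higher in MZ. All 32 had passed the filter on low values in the whole table, and their reads in a library ran from 431 for Nop16 to 19003 for Ncl. In bulk samples such as these, a different number of cells of a type and a different amount of RNA per cell cannot be told apart.

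**Figure D1:**
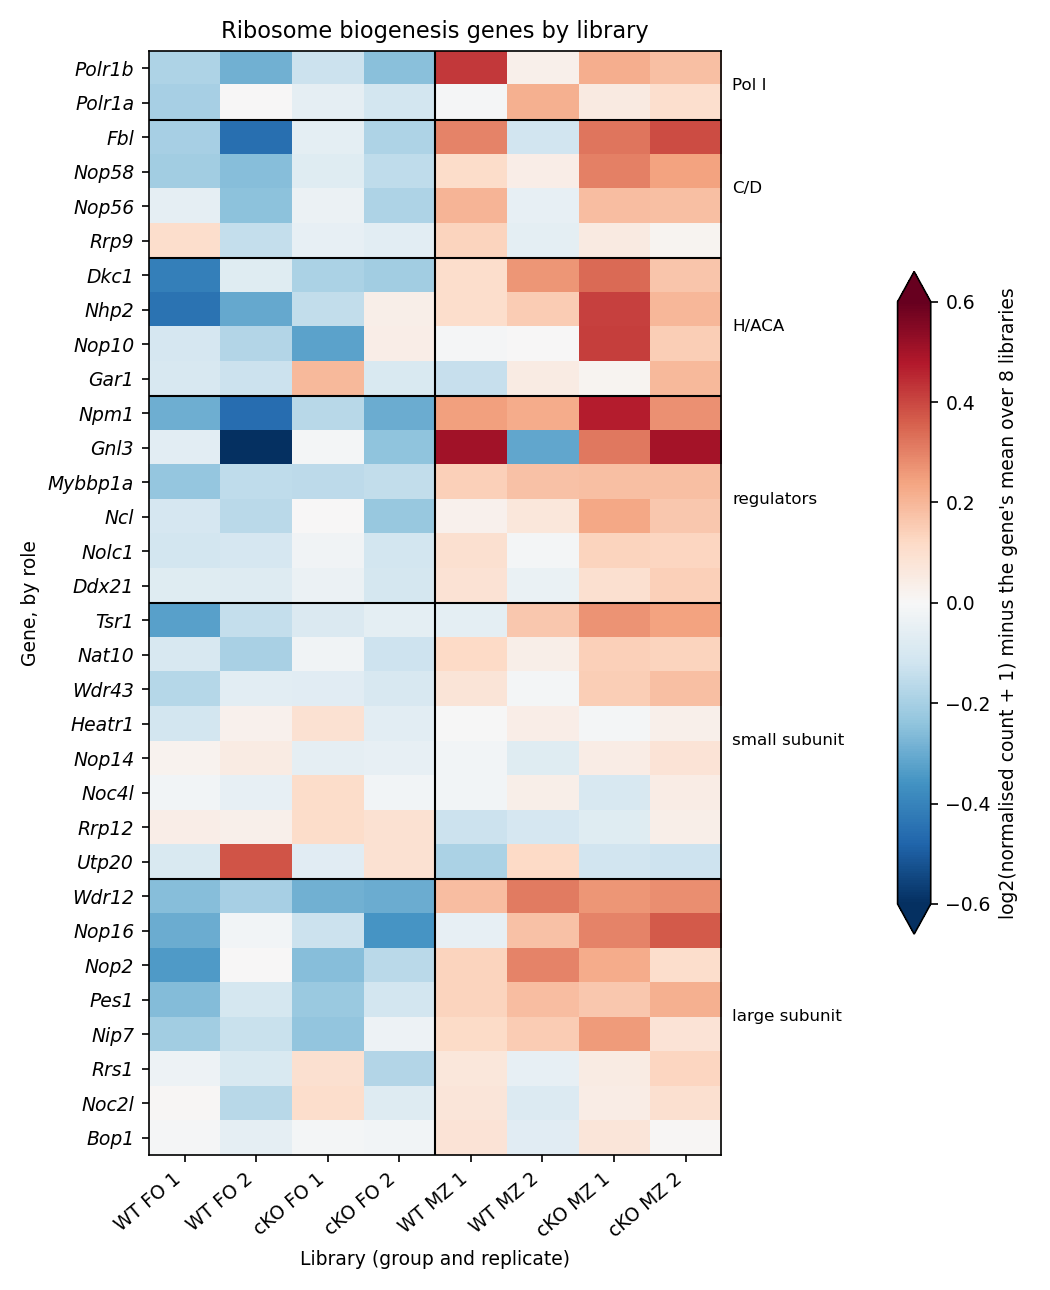
Colours give log2(normalised count + 1) of each gene in each library minus the gene's mean over the 8 libraries, with FO libraries left and MZ libraries right of the line and genes grouped by role. For 14 of the 32 genes all 4 MZ libraries lie above all 4 FO libraries, and the small subunit block is the palest.

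RNA polymerase I was covered by its 2 largest subunits. Polr1b, the second largest subunit, had 1945 and 1480 normalised counts in WT MZ against 1272 and 1184 in WT FO, with 1686 and 1642 in cKO MZ against 1323 and 1219 in cKO FO. All MZ libraries were above all FO libraries, and Polr1b was 1.34-fold higher in MZ (log2 -0.43 ± 0.094 (SE), adjusted p = 0.0107). Polr1a, the largest subunit, gave the same sign with a smaller difference that did not pass (log2 -0.18, adjusted p = 0.107), and its WT FO replicate 2 at 2482 was above its WT MZ replicate 1 at 2467.

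The core of the box C/D particle is formed by the methyltransferase fibrillarin (Fbl) with Nop56 and Nop58, which hold the guide RNA. Nop58 had 3171 and 3021 normalised counts in WT MZ and 3621 and 3475 in cKO MZ libraries, against 2540 and 2461 for WT FO and 2799 and 2646 for cKO FO. Its MZ libraries did not overlap the FO libraries, and the log2 difference was -0.34 ± 0.056 (adjusted p = 0.00268). Fbl had 1835 and 1380 in WT MZ against 1301 and 1092 in WT FO, with 1868 and 1963 in cKO MZ against 1437 and 1314 in cKO FO. The MZ groups were above the FO groups within each genotype, although WT MZ replicate 2 was below cKO FO replicate 1, and the log2 difference was -0.45 ± 0.106 (adjusted p = 0.0145). Nop56 also passed (log2 -0.26, adjusted p = 0.042), with 4825 and 4038 in WT MZ against 4030 and 3526 in WT FO, and 4751 and 4744 in cKO MZ against 4083 and 3684 in cKO FO. Its WT MZ replicate 2 was below cKO FO replicate 1. By contrast, Rrp9, a protein of the U3 particle, did not pass (log2 -0.07, adjusted p = 0.533). Genes of snoRNAs lie inside Nop56, Nop58, Ncl, Gnl3, Dkc1, Wdr43 and Tsr1, and for Nop56, Nop58, Ncl and Gnl3 some overlap annotated exons, so reads there could belong to either.

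Of the 4 box H/ACA proteins, dyskerin (Dkc1), the pseudouridine synthase, and Nhp2 rose in MZ. Dkc1 had 2107 and 2358 normalised counts in WT MZ and 2482 and 2204 in cKO MZ libraries, against 1474 and 1867 for WT FO and 1722 and 1699 for cKO FO, for a log2 difference of -0.44 ± 0.091 (adjusted p = 0.00844). Nhp2 had 1014 and 1047 in WT MZ against 694 and 763 in WT FO, with 1253 and 1083 in cKO MZ against 851 and 965 in cKO FO, for -0.43 ± 0.082 (adjusted p = 0.00562). In both genes all MZ libraries were above all FO libraries. Dkc1 is X-linked, and Xist, which differed between the genotypes, also differed between the subsets in WT, at 42534 and 47002 in MZ against 25930 and 31050 in FO libraries. Nop10, a small scaffold protein of the particle, ranged from 1064 to 1428 in MZ and from 855 to 1099 in FO libraries, which overlapped, and did not pass (log2 -0.28, adjusted p = 0.0689), with log2 differences of -0.14 in WT and -0.42 in cKO. Gar1 showed a log2 difference of -0.06 (adjusted p = 0.667).

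The nucleolar regulators held the largest difference. Npm1, nucleophosmin, an abundant histone and ribosome chaperone, had 9916 and 9740 normalised counts in WT MZ and 11586 and 10123 in cKO MZ libraries, against 6814 and 6095 for WT FO and 7441 and 6808 for cKO FO. The lowest MZ library was above the highest FO library, and Npm1 was 1.52-fold higher in MZ across both genotypes (log2 -0.61 ± 0.072, adjusted p = 0.000643). Its 95% interval on the log2 scale ran from -0.78 to -0.44, which includes differences smaller than 1.5-fold. Mybbp1a, a nucleolar protein that binds the transcription factor MYB, had 8235 and 8425 in WT MZ against 6351 and 6705 in WT FO, with 8450 and 8454 in cKO MZ against 6691 and 6715 in cKO FO, with log2 -0.34 ± 0.053 (adjusted p = 0.00216). Ncl, nucleolin, had 16390 and 16907 in WT MZ and 18940 and 18003 in cKO MZ libraries, against 15016 and 14428 for WT FO and 16162 and 13768 for cKO FO. Its MZ libraries were above its FO libraries by a small margin, with log2 -0.24 ± 0.071 (adjusted p = 0.0331).

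Gnl3, nucleostemin, had 7797 and 4437 normalised counts in WT MZ against 5276 and 3410 in WT FO, with 6854 and 7772 in cKO MZ against 5467 and 4652 in cKO FO. Its log2 difference of -0.50 was among the larger ones, but its WT replicates differed from each other by more than that, and it did not pass (SE 0.2, adjusted p = 0.0911). Nolc1, a chaperone of box C/D and H/ACA particles, had non-overlapping libraries and a log2 difference of -0.17, just outside the threshold (adjusted p = 0.0507). The helicase Ddx21 had a log2 difference of -0.14 (adjusted p = 0.0942).

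Small subunit factors had the smallest median log2 difference of the 6 roles, at -0.02 over 8 genes, of which 3 passed. Tsr1, a late assembly factor of the small subunit, had 1274 and 1483 normalised counts in WT MZ and 1599 and 1571 in cKO MZ libraries, against 1057 and 1202 for WT FO and 1251 and 1275 for cKO FO (log2 -0.31 ± 0.076, adjusted p = 0.0176). The MZ libraries were above the FO libraries within each genotype, and cKO FO replicate 2 was level with WT MZ replicate 1. Exons of Tsr1 share 1240 bp with Srr on the opposite strand, and the sources used here do not give the strand setting of the counting, so reads of the pair could not be separated. Nat10, an RNA acetyltransferase, and Wdr43, a factor of the early precursor particle, passed with log2 differences of -0.22 (adjusted p = 0.0275) and -0.20 (adjusted p = 0.031). Nat10 lay between 2107 and 2271 normalised counts in the 4 MZ libraries and between 1799 and 2027 in the 4 FO libraries, and Wdr43 between 3621 and 4140 and between 3240 and 3497, without overlap in either gene. The other 5 genes, Heatr1, Nop14, Noc4l, Rrp12 and Utp20, lay between -0.03 and 0.16 with adjusted p from 0.138 to 0.869. Rrp12, a factor of subunit maturation and export, ranged from 1038 to 1098 normalised counts in FO and from 931 to 1042 in MZ libraries. These ranges overlapped, although within each genotype its FO libraries were above its MZ libraries. Among the 5, Utp20, a scaffold of the early precursor, had the highest value of all 32, with 1824 and 2529 normalised counts in WT FO and 1706 and 2111 in WT MZ B cells, groups that overlapped.

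Large subunit factors again leaned to MZ, with 5 of 8 genes past the threshold and a median log2 difference of -0.33. Pes1, Bop1 and Wdr12 form 1 complex that is needed to process the large subunit RNA, and only Wdr12 and Pes1 passed; differences between genes were not tested. Wdr12 had 955 and 1044 normalised counts in WT MZ against 705 and 732 in WT FO, with 1010 and 1019 in cKO MZ against 688 and 684 in cKO FO, for a log2 difference of -0.52 ± 0.066 (adjusted p = 0.000892). Pes1 had 2356 and 2436 in WT MZ and 2399 and 2490 in cKO MZ libraries, against 1792 and 1993 for WT FO and 1839 and 1986 for cKO FO, for -0.35 ± 0.064 (adjusted p = 0.00461). In both genes the subsets did not overlap. Bop1 had 2136 and 1925 in WT MZ against 2007 and 1945 in WT FO, with 2121 and 2029 in cKO MZ against 2005 and 1998 in cKO FO, and its log2 difference of -0.05 had a 95% interval from -0.19 to 0.1.

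Nop2, an RNA methyltransferase of the large subunit, had 1705 and 1908 normalised counts in WT MZ and 1811 and 1671 in cKO MZ libraries, against 1227 and 1555 for WT FO and 1301 and 1387 for cKO FO (log2 -0.38 ± 0.091, adjusted p = 0.0155). Nip7 and Nop16, both large subunit assembly factors, passed with log2 differences of -0.30 (adjusted p = 0.0183) and -0.40 (adjusted p = 0.022). Nip7 ranged from 1256 to 1417 normalised counts in MZ and from 1005 to 1161 in FO libraries. For Nop16 the WT groups overlapped, at 452 and 550 normalised counts in FO and 537 and 627 in MZ B cells, while the cKO groups were apart, at 508 and 434 and at 684 and 718. Rrs1 and Noc2l had log2 differences of -0.10 and -0.07 (adjusted p = 0.406 and 0.531).

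Within each genotype the same lean was seen with fewer genes past the threshold. In WT the median log2 difference was -0.21, and 6 of 32 genes passed, all higher in MZ (Npm1, Wdr12, Mybbp1a, Nhp2, Nop58 and Pes1), against 9.41% of all genes higher in MZ and 7.51% higher in FO. In cKO the median was -0.30, and 7 of 32 passed, all higher in MZ (Wdr12, Npm1, Nop58, Mybbp1a, Pes1, Nop16 and Dkc1), against 10.3% and 9.29%. Npm1 was the only 1 of the 32 called at 1.5-fold in either genotype, where 7.41% of all genes in WT and 8.18% in cKO were called higher in MZ. The contrasts of WT and of cKO share no library. They had the same sign for 29 of 32 genes (90.6%), compared with 84.6% of all genes tested, and Pearson's r between them was 0.87 across the 32 genes and 0.89 across all genes, where genes are not independent replicates. Every MZ library was above every FO library for 19 of 32 genes in WT (28.2% of all genes), for 25 of 32 in cKO (32% of all genes), and for 19 of 32 within both genotypes (22.3% of all genes). Over all 4 MZ and all 4 FO libraries at once it was 14 of 32 (18.6% of all genes). In the other direction, all FO libraries were above all MZ libraries for 0 of 32, and for 2648 of the 14761 genes tested. Within WT this held for 2 of 32 (Rrp12 and Nop14) and 4011 of all genes. Within cKO it held for 2 of 32 (Rrp12 and Utp20) and 4882 of all genes.

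**Figure D2:**
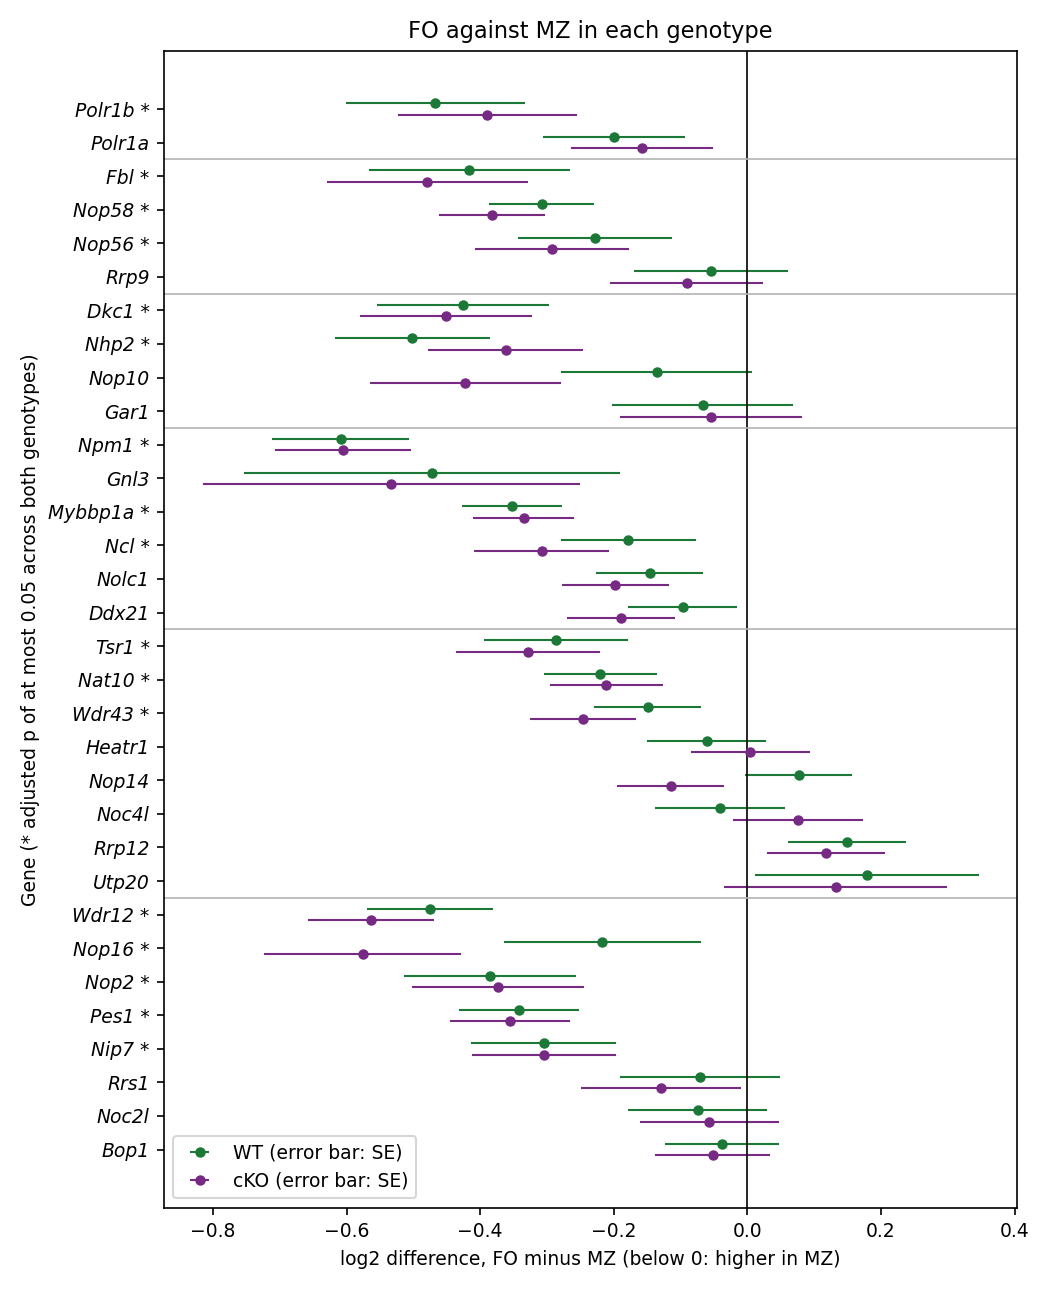
Points are log2 differences, FO minus MZ, from limma in WT and in cKO, with bars of 1 SE, and an asterisk marks the 17 genes with an adjusted p of at most 0.05 across both genotypes. Values below 0 are higher in MZ, and Npm1 stands at -0.61 in both genotypes while most small subunit genes lie near 0.

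The count of genes past the threshold across both genotypes moved with single libraries. It was 9 of the 17 without cKO MZ replicate 1, the library with granulocyte and erythroid markers, 10 without cKO MZ replicate 2 and 12 without cKO FO replicate 1, the library with both sex-linked transcripts. The 8 genes Npm1, Wdr12, Mybbp1a, Nop58, Pes1, Nhp2, Dkc1 and Polr1b passed in all 17 settings computed, including each of the 8 fits without 1 library. Npm1 was not called at 1.5-fold across both genotypes without WT FO replicate 2, without cKO FO replicate 2 or without cKO MZ replicate 1. The median log2 difference was -0.22 without cKO MZ replicate 1 and between -0.26 and -0.21 when each other library was left out. In WT the count of 6 was 1 without WT FO replicate 1, 2 without WT MZ replicate 1 and 3 without WT MZ replicate 2. In cKO the count of 7 was 3 without cKO FO replicate 1 or without cKO FO replicate 2, 1 without cKO MZ replicate 1 and 2 without cKO MZ replicate 2.

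Markers of dividing cells moved with the subset too. The 12 markers summed to 5408 and 12127 normalised counts for WT MZ and 10541 and 4790 for cKO MZ libraries, against 2762 and 3520 for WT FO and 2552 and 2601 for cKO FO libraries, and 10 of the 12 passed, all higher in MZ. Mki67, a proliferation marker, was at 238 to 656 in FO and 1183 to 3777 in MZ libraries. The sums of the 32 ribosome biogenesis genes were 102190 and 97454 for WT MZ and 108098 and 106458 for cKO MZ, against 85132 and 83372 for WT FO and 90358 and 84608 for cKO FO. The part of dividing cells in the difference between the subsets was not tested. The erythroid and granulocyte sums were high in 1 of the 4 MZ libraries only, and macrophage markers summed to 599 to 1057 in FO and 666 to 1500 in MZ libraries. Plasma cell markers summed to 14867 to 32524 in FO and 20381 to 41216 in MZ libraries, so their sums overlapped. Of the 5 plasma cell markers tested, 1 passed higher in FO and 1 higher in MZ across both genotypes. T cell markers summed to 791 to 1292 in FO and 749 to 1227 in MZ libraries.

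**Figure D3:**
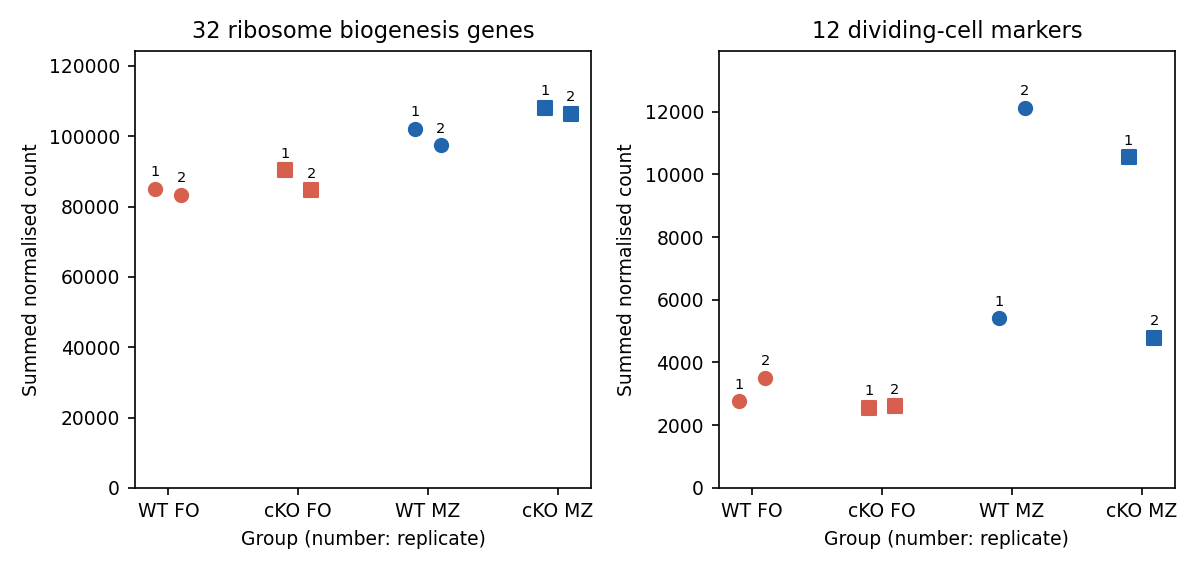
Each point is 1 library, with the summed normalised counts of the 32 genes on the left and of the 12 dividing-cell markers on the right, for the 4 groups with replicate numbers. The sums of the 32 genes run from 83372 to 90358 in FO and from 97454 to 108098 in MZ libraries, and the dividing-cell sums from 2552 to 3520 and from 4790 to 12127.

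Other genes of the pathway, taken from lists that leave out the 32, did not lean to either subset as a whole. These lists and the 32 genes were chosen with earlier results of these data known. Whether that choice bears on the contrast between them was not tested. The 4 lists of RNA polymerase I machinery, snoRNP assembly, small subunit and large subunit factors held 115 genes, with a median log2 difference of -0.01. Of these, 11 (9.57%) passed higher in MZ and 7 (6.09%) higher in FO. Among all genes tested, 17.1% passed higher in MZ and 16.3% higher in FO, shares that also serve for the lists below. Among 13 genes of the RNA polymerase I machinery only Polr1e, a subunit, passed, at 926 and 940 normalised counts in WT MZ against 588 and 657 in WT FO, with 1004 and 992 in cKO MZ against 596 and 637 in cKO FO (log2 -0.64, adjusted p = 0.000473). The next genes by p, Taf1d and Cd3eap, were at -0.33 (adjusted p = 0.0766) and -0.35 (adjusted p = 0.0861). Of 11 snoRNP assembly genes only Znhit6, an assembly factor of box C/D particles, passed (log2 -0.54, adjusted p = 0.00449), and Pih1d1 and Nufip1 had log2 differences of 0.25 and 0.21 (adjusted p = 0.128 and 0.241).

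Of 46 further small subunit factors, 2 (4.35%) passed higher in MZ and 4 (8.7%) higher in FO, with a median of 0.01. Emg1, an RNA methyltransferase, and Bms1, a GTPase, were higher in FO (log2 0.26 and 0.22, adjusted p = 0.0107 and 0.0136), and Rcl1 was higher in MZ (log2 -0.44, adjusted p = 0.0159). Of 45 further large subunit factors, 7 (15.6%) passed higher in MZ and 3 (6.67%) higher in FO, with a median of -0.04. Rrp1b, a nucleolar protein, showed the largest difference in these 4 lists, at 1448 and 1326 normalised counts in WT MZ and 1467 and 1415 in cKO MZ libraries, against 697 and 720 for WT FO and 757 and 681 for cKO FO (log2 -0.99, adjusted p = 5.9e-05). Nol9, an RNA kinase, was higher in MZ (log2 -0.44, adjusted p = 0.00137) and its partner Tex10 higher in FO (log2 0.37, adjusted p = 0.00248). The cytosolic ribosomal proteins, which this machinery assembles, leaned to MZ: 71 of 78 had a log2 difference below 0, and the median was -0.21. Of the 78, 27 (34.6%) passed higher in MZ and 0 higher in FO, against 17.1% and 16.3% of all genes tested. Rplp0, a protein of the ribosomal stalk, rose from 18739 and 16602 in WT FO to 29021 and 26978 in WT MZ, and from 22112 and 20274 in cKO FO to 33500 and 29959 in cKO MZ B cells (log2 -0.62, adjusted p = 0.000786). Rpl10a and Rpl32 were also higher in MZ (log2 -0.44 and -0.50, adjusted p = 0.000961 and 0.00241).

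**Figure D4:**
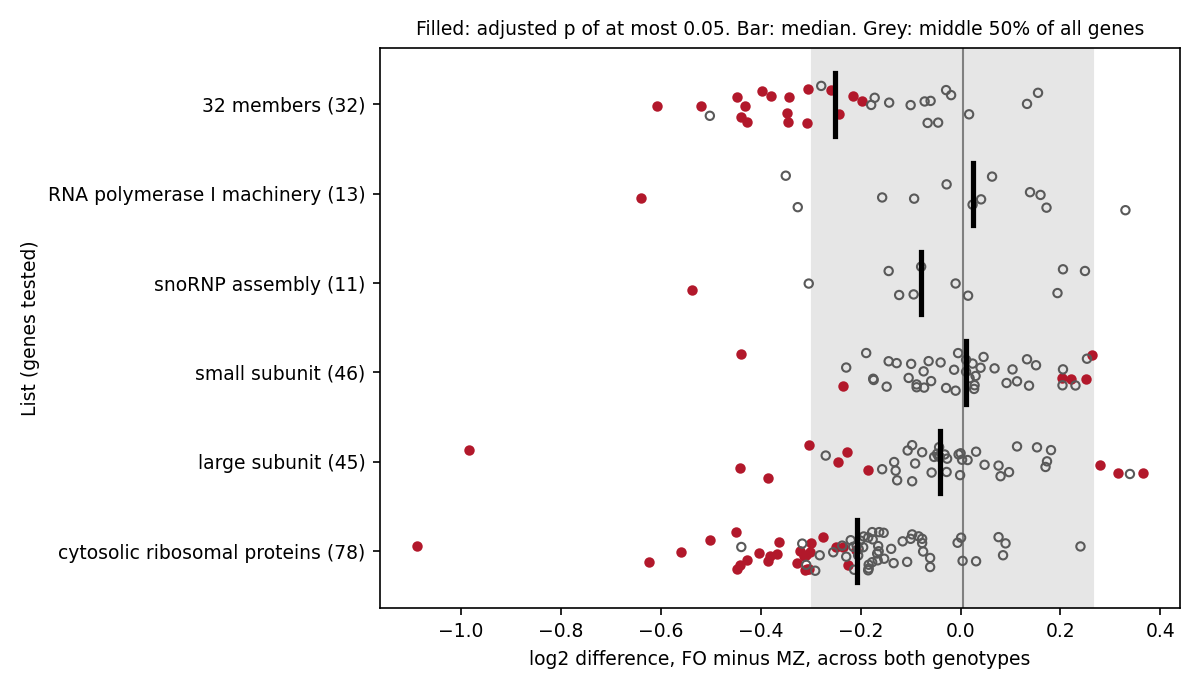
Each point is 1 gene at its log2 difference, FO minus MZ, across both genotypes, filled where the adjusted p was at most 0.05, with a bar at the median of each list and a grey band over the middle 50% of all genes tested (-0.30 to 0.27). The medians of the 32 genes (-0.25) and of the ribosomal proteins (-0.21) lie left of those of the other 4 lists.

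Since many of the 32 genes differed in the same direction, their promoters were searched for short motifs in the RefSeq windows of 250 bases before to 50 bases after each start site (GRCm38.p6). Entries were matched for 27 of the 32 genes, with 30 windows, and Npm1, Fbl, Bop1, Rrp12 and Rrs1 had no entry. The E-box CACGTG, the form of this motif that MYC family factors bind, was in 6 of 27 genes (Nop2, Pes1, Wdr43, Tsr1, Utp20 and Mybbp1a) or 22.2%, compared with 11.8% of the tested genes with a window and 8.09% of all genes with a window. By window it was 20.0% for the 32 genes, 19.1% for the 4 pathway lists, 10.0% for tested genes and 7.15% for all. It lay before the start only in Nop2, 60 bases upstream, and 2 to 40 bases after it in the others. Of these 6 genes, Nop2, Pes1, Wdr43, Tsr1 and Mybbp1a passed between the subsets and Utp20 did not. Of the 21 genes with an entry and no such match, Wdr12, Nop58, Nhp2, Dkc1, Polr1b, Nip7, Nop16, Nat10, Ncl and Nop56 passed. The rest of these 21 did not pass. Whether the motif bears on the difference between the subsets was not tested. A GC box (GGGCGG or its complement CCGCCC) was in 70.4% of the 27 genes and 66.6% of tested genes, and a CCAAT box (CCAAT or ATTGG) in 29.6% and 43.3%. The CACGTG motif reads the same on both strands, and a match to one motif may share end letters with a match to another. A match describes letters and is not a measured binding site.

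The 100 bases before the start site are shown for 6 of the genes that passed across both genotypes. These 6 had the smallest p of those with a single start and no annotated exon of any gene in that stretch. The stretches are only a part of the windows searched above. Each is written from 5′ to 3′ on the strand of the gene, with matches to the 3 motifs in capitals. The stretches are Mybbp1a at chr11:72441227-72441326 (+), Pes1 at chr11:3963875-3963974 (+), Dkc1 at chrX:75095754-75095853 (+), Nop2 at chr6:125131783-125131882 (+), Nip7 at chr8:107056777-107056876 (+) and Nat10 at chr2:103761271-103761370 (-).
Mybbp1a: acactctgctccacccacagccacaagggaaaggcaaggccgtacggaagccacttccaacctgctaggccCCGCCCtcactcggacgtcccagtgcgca
Pes1: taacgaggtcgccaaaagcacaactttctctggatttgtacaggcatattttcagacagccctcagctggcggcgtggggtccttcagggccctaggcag
Dkc1: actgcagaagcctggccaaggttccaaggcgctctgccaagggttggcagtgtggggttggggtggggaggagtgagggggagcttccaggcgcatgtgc
Nop2: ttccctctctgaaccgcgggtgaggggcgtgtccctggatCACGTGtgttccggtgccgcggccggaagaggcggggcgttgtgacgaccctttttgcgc
Nip7: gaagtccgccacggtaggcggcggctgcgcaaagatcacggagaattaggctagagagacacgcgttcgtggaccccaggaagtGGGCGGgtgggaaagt
Nat10: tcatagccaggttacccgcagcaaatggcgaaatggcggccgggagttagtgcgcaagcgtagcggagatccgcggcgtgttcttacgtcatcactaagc

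Only Nop2 held an E-box in this stretch, Mybbp1a and Nip7 each held 1 GC box, and Pes1, Dkc1 and Nat10 held none of the 3 motifs there. In the rest of the searched windows, Pes1 and Mybbp1a held an E-box, Dkc1 and Nip7 a CCAAT box and Nop2 a GC box. Nat10 held none of the 3 motifs in its whole window. All 6 genes were higher in MZ by the values above.

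The second question was whether loss of Gtf2i changed these genes. None of the 32 was called in MZ, in FO or across both subsets by limma, where 0.0339%, 0.0677% and 0.108% of all genes were called, and DESeq2 and edgeR on the recovered reads called none of the 32 either. Unadjusted p was under 0.05 for 1 gene in MZ (Nop58), 1 in FO (Nhp2) and 3 across both subsets. The values leaned to cKO by a small amount: 27 of 32 had a log2 difference (cKO minus WT) above 0 across both subsets, with a median of 0.06 against -0.01 for all genes, and the medians were 0.085 in MZ and 0.039 in FO. For 31 of the 32 genes the 95% interval across both subsets stayed within a 1.5-fold change in either direction. Gnl3 was the exception, with an interval from -0.18 to 0.74.

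The 3 genes with the smallest p toward cKO were Nhp2, Nop58 and Tsr1. Nhp2, whose values are given above, was higher in both cKO libraries than in both WT libraries of each subset. The log2 difference was 0.25 ± 0.082 with an unadjusted p of 0.0179 and an adjusted p of 0.667 from limma. Nop58 had 0.16 (adjusted p = 0.683) and Tsr1 0.18 (adjusted p = 0.745). In all 3 genes every cKO library was above every WT library of its subset, as it was in Fbl and Rrp12, which were named after their values were seen. These 5 of 32 genes compare with 3.88% of all genes tested. None of the 32 had every cKO library below every WT library in both subsets, a count for which no share over all genes was computed. The 3 genes with the smallest p toward WT were Utp20 (log2 -0.11, adjusted p = 0.905), Nop2 (-0.05, adjusted p = 0.95) and Wdr12 (-0.02, adjusted p = 0.971), each smaller than its SE. The cytosolic ribosomal proteins leaned to cKO as well, with 75 of 78 above 0 across both subsets and a median of 0.21. In limma 0 of them passed, and 38 of the 78 had an unadjusted p under 0.05, compared with 978 of the 14761 genes tested. Sex-linked transcripts differed between the genotypes in the same libraries, so genotype, sex and Cre cannot be told apart here. Without cKO FO replicate 1 the median of the 32 genes was 0.04 and without cKO MZ replicate 1 it was 0.07, and no gene passed in either case.

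**Figure D5:**
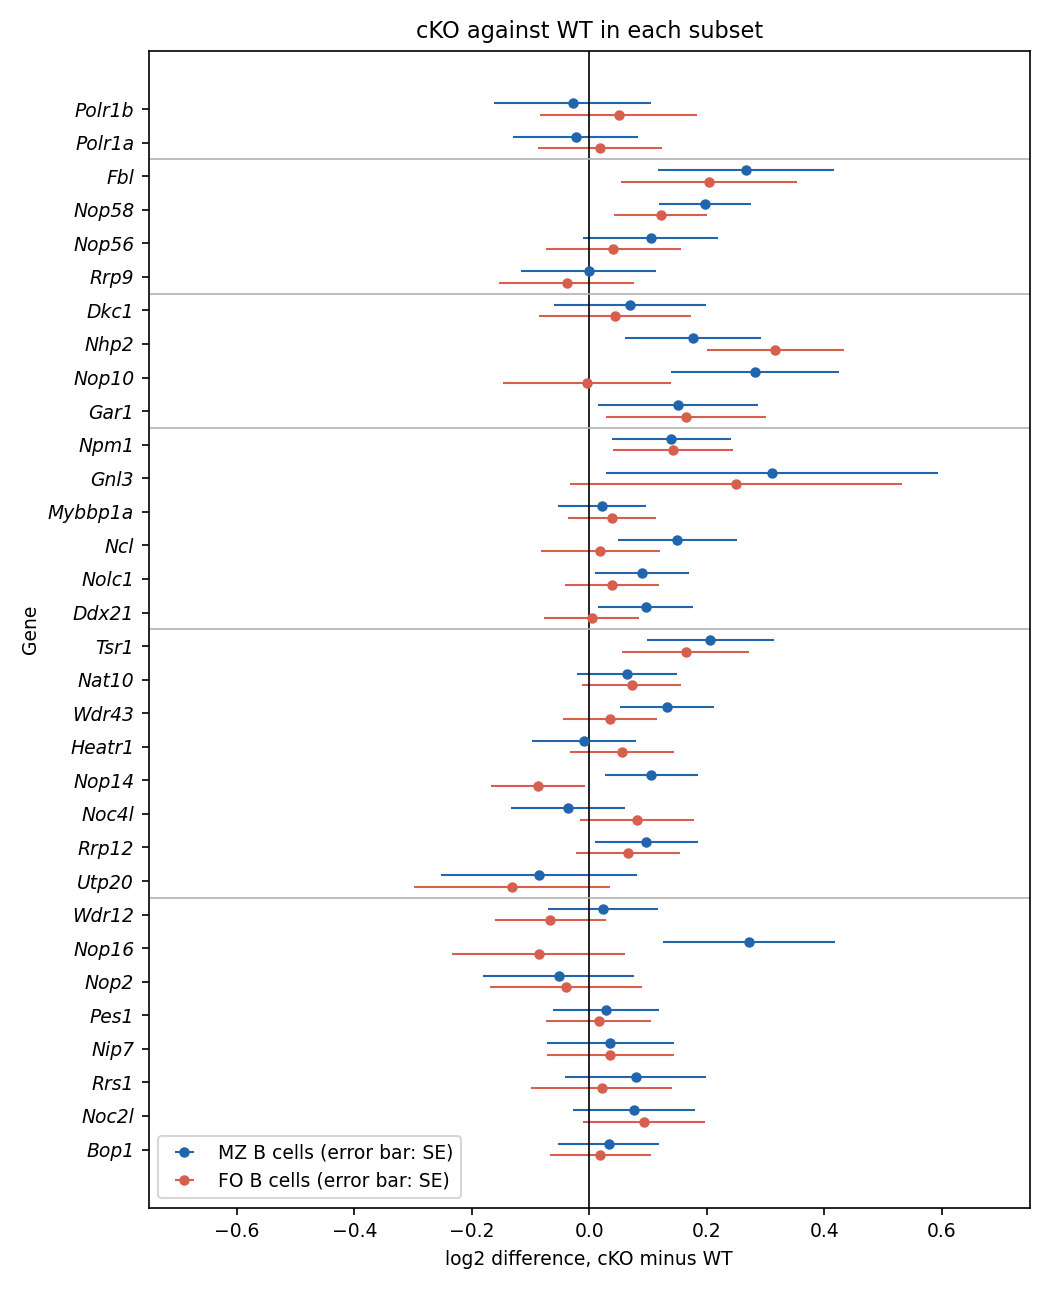
Points are log2 differences, cKO minus WT, from limma in MZ and in FO B cells, with bars of 1 SE. None of the 32 genes passed the threshold in either subset, and the points lie between -0.13 and 0.32.

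Whether the difference between genotypes depended on the subset was tested by an interaction term, the cKO minus WT difference in MZ less that in FO. No gene of the whole table was called (0%), and DESeq2 and edgeR called none of the 32. In limma none of the 32 had an unadjusted p under 0.05, where 94 of the 14761 genes tested did. The median over the 32 genes was 0.03, and the values ran from -0.14 for Nhp2 to 0.36 for Nop16. The 3 smallest unadjusted p were those of Nop16, Nop14 and Nop10, all with an adjusted p of 1.

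The last question was how closely the replicates agreed for these genes. On the log2 scale the median absolute difference between the replicates was 0.107 and 0.124 for WT FO and WT MZ, and 0.115 and 0.057 for cKO FO and cKO MZ. For the 6600 genes with mean levels between those of the lowest and the highest of the 32, it was 0.153, 0.135, 0.123 and 0.094. Between 24 and 30 of the 32 genes differed by less than 0.2 in each group. Counting error alone gives such a difference an SD whose median over the 32 genes was 0.0446 to 0.0495 in the 4 groups, up to 0.097 for the gene with the fewest reads, and 5 to 11 of the 32 genes differed by less than that SD of their own. Gnl3 was the widest in both WT groups, at 0.63 in FO and 0.81 in MZ with replicate 1 higher in each, and Nop10 the widest in both cKO groups, at 0.36 and 0.27. For Gnl3 and Nop10 the differences of -0.50 and -0.28 between the subsets did not pass. Other genes also had replicates further apart than those of Nop10. Among them, Fbl and Polr1b, at 0.41 and 0.394 in WT MZ, passed between the subsets, and Utp20 in WT FO did not. In cKO FO replicate 1 was above replicate 2 for 23 of 32 genes, and in the other groups the split was 15 to 17 genes.

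Levels between genes were compared per length, as normalised counts per kb of annotated exon averaged over all 8 libraries. Npm1 was the highest at 3214 per kb, followed by Ncl at 1590, Noc2l at 1509, Mybbp1a at 1293, Ddx21 at 1252 and Nop56 at 1027 per kb. Wdr12 was the lowest at 71.5 per kb, below Utp20 at 192 and Polr1a at 210 per kb. Within the box H/ACA particle Nop10 had 975, Nhp2 837, Dkc1 483 and Gar1 372 per kb, and within the complex of large subunit factors Pes1 had 715, Bop1 683 and Wdr12 71.5 per kb. The exon length is the union of all annotated exons of a gene, which for Wdr12 (11955 bp), Polr1a (11871 bp) and Nop58 (10758 bp) is long and lowers the value per kb. The order changed little between groups, with Npm1 at 3688 and 4073 per kb in WT and cKO MZ and at 2422 and 2673 per kb in WT and cKO FO B cells, above every other gene of the 32 in each.

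In the genome (mm10, GENCODE M21) the 8 genes that passed in every setting lay on 3 autosomes and the X chromosome. Npm1 spans chr11:33152287-33163206 on the minus strand, and Mybbp1a (chr11:72441355-72451768), Pes1 (chr11:3963975-3980004) and Nhp2 (chr11:51619735-51623714) lie on the plus strand of the same chromosome. Nop58 (chr1:59684971-59719044, plus) and Wdr12 (chr1:60069785-60098645, minus) lie on chromosome 1, Polr1b at chr2:129100995-129126594 (plus) and Dkc1 at chrX:75095854-75109777 (plus). All 32 are annotated as protein coding. Besides Tsr1, an opposite gene shares 598 bp of exon with Noc2l (Samd11), 185 bp with Polr1a (Gm26628) and 155 bp with Heatr1 (Lgals8). The shared length was 144 bp for Nop14, 138 bp for Pes1 and 131 bp for Mybbp1a (Spns2). Shorter overlaps lie in Wdr12, Wdr43, Bop1, Dkc1, Nhp2, Rrp9, Gnl3 and Nop56. Reads of such pairs could not be separated without strand.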

How the data were processed

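Sorted splenic B cells gave 8 libraries of ribosomal RNA-depleted total RNA, read as 50 bp single-end reads on a NextSeq 500. Per the labels and the methods of the study, the authors aligned trimmed reads to mm10 with HISAT2, counted reads on genes with featureCounts and htseq-count (which made the table, the versions and the strand setting are not given in the sources used here) and normalised with DESeq2. The deposited values are a signal, reads per gene divided by 1 size factor per library. All of them (100%, tolerance 0.001) came out as whole reads, which gave 21546552 to 25083552 reads per library. The SD that counting error (Poisson) gives the log2 difference of 2 replicates was 0.0151 to 0.097 for these genes, and 2 libraries a group limit the precision. ATAC-seq libraries were not analysed here. Blank lines (256343) were left out.

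Tests used limma 3.58.1 (R 4.3.3; trend) on log2(normalised count + 1), fitted on all 8 libraries as 4 group means over 14761 genes with a mean of at least 10, with Benjamini-Hochberg adjustment over all genes. Differences are on this scale. Genes were called when they changed at least 1.5-fold with an adjusted p no higher than 0.05. DESeq2 1.42.0 and edgeR 4.0.16 were run on the recovered reads. Exact permutation of 2 against 2 libraries cannot reach 0.05. Fits were tested on simulated data. Annotation was GENCODE M21 (27872 gene IDs matched, 27347 with the same version).

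The 32 genes and all lists were chosen with earlier results of these data known. All 32 are named; for genotype, the 3 smallest p in each direction, and 3 genes per pathway list. Alternatives were pseudocount 0.5, no filter, quantile or total-read scaling, only the 4 libraries compared, a replicate block, other fold limits and leaving out each library.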

Additional observations from a re-analysis of the deposited data

Results flagged for a closer look

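Nop14, a small subunit assembly factor, had 1446 and 1389 normalised counts in WT MZ against 1480 and 1511 in WT FO, with 1505 and 1546 in cKO MZ against 1405 and 1411 in cKO FO. It stood out because both cKO libraries were above both WT libraries in MZ and below both in FO, so that the genotype difference had opposite signs in the subsets, and FO was likewise above MZ in WT and below it in cKO. The difference between the 2 genotype effects was 0.192 on the log2 scale, and limma's interaction test gave an unadjusted p of 0.128 and an adjusted p of 1. Exons of Nop14 share 144 bp with an antisense gene, whose part in this was not tested.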

How the results depend on the processing

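Across both genotypes the median stayed below 0 and none of the 32 passed higher in FO in any setting. The 17 genes past the adjusted p across both genotypes all passed in each alternative with all 8 libraries except without the filter, where 14 did; leaving out 1 library gave 9 to 14, the lowest without cKO MZ replicate 1 (9) and replicate 2 (10). The count of 6 in WT (9.41% of all genes passed higher in MZ) was 1 with only the 4 libraries compared (4.51%). The count of 7 in cKO (10.3%) was 15 with quantile normalization (10.1%), 16 scaled to total reads (12.4%) and 12 with only the 4 libraries (12%). The replicate block gave 19 across both (18.9%), 7 in WT (10.7%) and 10 in cKO (11.8%). The labels do not say whether libraries of the same replicate number were paired. Over 10178 genes, deviations of replicates correlated at 0.769 between WT FO and WT MZ but -0.122 between cKO FO and cKO MZ. Between the genotypes they correlated at 0.485 in FO and -0.402 in MZ. In WT, libraries of the same number thus deviated together, and the main fit held no term for the replicate number. A block with the cKO MZ numbers exchanged, chosen after seeing the data, gave 20 across both (21.4% of all genes), 12 in WT (13.2%) and 18 in cKO (14.9%). The 1 gene called across both was 2 with quantile or total-read scaling, 17 without a fold limit, 0 at 2-fold and 0 to 2 leaving out a library; in WT 6, 0 and 1 to 3, and in cKO 3 with total-read scaling, 7, 0 and 0 to 1. Scaling to total reads moved the median of all genes to -0.066 and that of the 32 in cKO to -0.386. Genotype and interaction counts were 0 in all settings. Signs near 0 turned: Noc4l fell to -0.053 with total-read scaling, and Wdr12 between genotypes went to 0.003 with quantile normalization. Leaving out a library gave Noc4l -0.018 to 0.053, Heatr1 -0.067 to 0.01, Gar1 -0.131 to 0.01, and between genotypes Utp20 -0.227 to 0.009, Nop2 -0.131 to 0.039 and Wdr12 -0.054 to 0.011. The cause was not tested.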
